A study of Homo sapiens with 6 samples.

Results

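The nuclear-encoded subunits of respiratory complexes II, III, IV and V, together with cytochrome c, were followed as mRNAs across 3 RNA fractions of human forebrain neurons. Members were chosen by symbol alone: SDHA to SDHD, symbols beginning with UQCR, COX4 to COX8 or ATP5, and CYC1 and CYCS, with symbols ending in P and digits (named gene copies) and antisense entries left out. This gave 52 of the 19777 protein-coding genes in the table: 4 for complex II, 10 for complex III, 17 for complex IV, 20 for complex V and 1 for cytochrome c. Of these, 44 reached the mean of 1 FPKM over the 6 libraries that was required for testing, and 8 did not. FPKM counts fragments relative to the length of the transcript and the size of the library, so it is a share of a library and not a number of molecules per cell. The length used for each gene is not given in the sources used here, and its part in level differences between genes was not tested.

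The cells were untreated, wild-type forebrain neurons differentiated from H9, a human embryonic stem cell line, and were collected at day 26; the labels also name them neuron progenitor cells. Total-cell, cytoplasmic and nuclear RNA were each sequenced after ribosomal RNA depletion in 2 libraries, and all 3 groups share this genotype, age and lack of treatment. The culture stands for 1 cell line at 1 time. Whether replicates were separate cultures is not stated. The p-values therefore rest only on differences between the 2 libraries of each group, pooled over all genes or taken for each gene alone. These differences may be technical variation.

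Complex II (succinate dehydrogenase) and complex III pass electrons from the citric acid cycle and from ubiquinol to cytochrome c, complex IV (cytochrome c oxidase) passes them to oxygen, and complex V (ATP synthase) uses the resulting proton gradient to make ATP. Complex II is built wholly from nuclear genes, whereas complexes III, IV and V join nuclear-encoded subunits, translated on cytosolic ribosomes and imported, with a few subunits made inside mitochondria. Neurons rely on oxidative phosphorylation for most of the ATP that ion pumping and synaptic transmission consume.

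The 6 libraries carried markers of both neurons and progenitors. The summed level of 6 neuronal markers (TUBB3, DCX, STMN2, MAP2, GAP43 and ELAVL3) was 277 and 251 FPKM in cytoplasmic RNA, 84.1 and 98.2 FPKM in nuclear RNA and 513 and 577 FPKM in total RNA. That of 5 neural progenitor markers (PAX6, SOX2, NES, VIM and HES1) was 730.1 and 678, 315 and 344, and 372 and 401 FPKM in the same order. VIM made up most of each of these sums, at 630 and 583, 233 and 251, and 290 and 308 FPKM. Astrocyte markers summed to at most 0.626 FPKM, hindbrain and spinal cord markers to at most 0.252 FPKM and oligodendrocyte markers to at most 1.98 FPKM in any library, with MOG at 0 in all 6. Among 4 pluripotency-related genes, POU5F1 and NANOG reached at most 0.0759 FPKM, whereas LIN28A measured 14.2 and 13.5 FPKM and DPPA4 3.08 and 2.74 FPKM in cytoplasmic RNA. Mesenchymal and muscle markers were also present: 6 of them, TAGLN, COL3A1 and ACTA2 the highest in the cytoplasm, summed to 66.1 and 60.002 FPKM in cytoplasmic RNA, 40.01 and 46.2 FPKM in nuclear RNA and 41.96 and 49.2 FPKM in total RNA. Their part in the members' levels was not tested. No read counts accompany the FPKM values, and the sequencing depth of single genes is therefore unknown.

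The members made up 1.18% and 1.25% of the summed protein-coding FPKM in cytoplasmic RNA, 0.861% and 0.861% in nuclear RNA and 0.807% and 0.833% in total RNA. Summed over all 52, they reached 1614 and 1600 FPKM in the cytoplasm, 314 and 356 FPKM in nuclear RNA and 797 and 931 FPKM in total RNA. Complex V and complex IV carried most of this: complex V summed to 741 and 738 FPKM and complex IV to 554 and 548 FPKM in the cytoplasm, against 262 and 257 FPKM for complex III and 48.0 and 47.8 FPKM for complex II. Cytoplasmic libraries were the highest and nuclear libraries the lowest for each of these complexes.

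**Figure D1:**
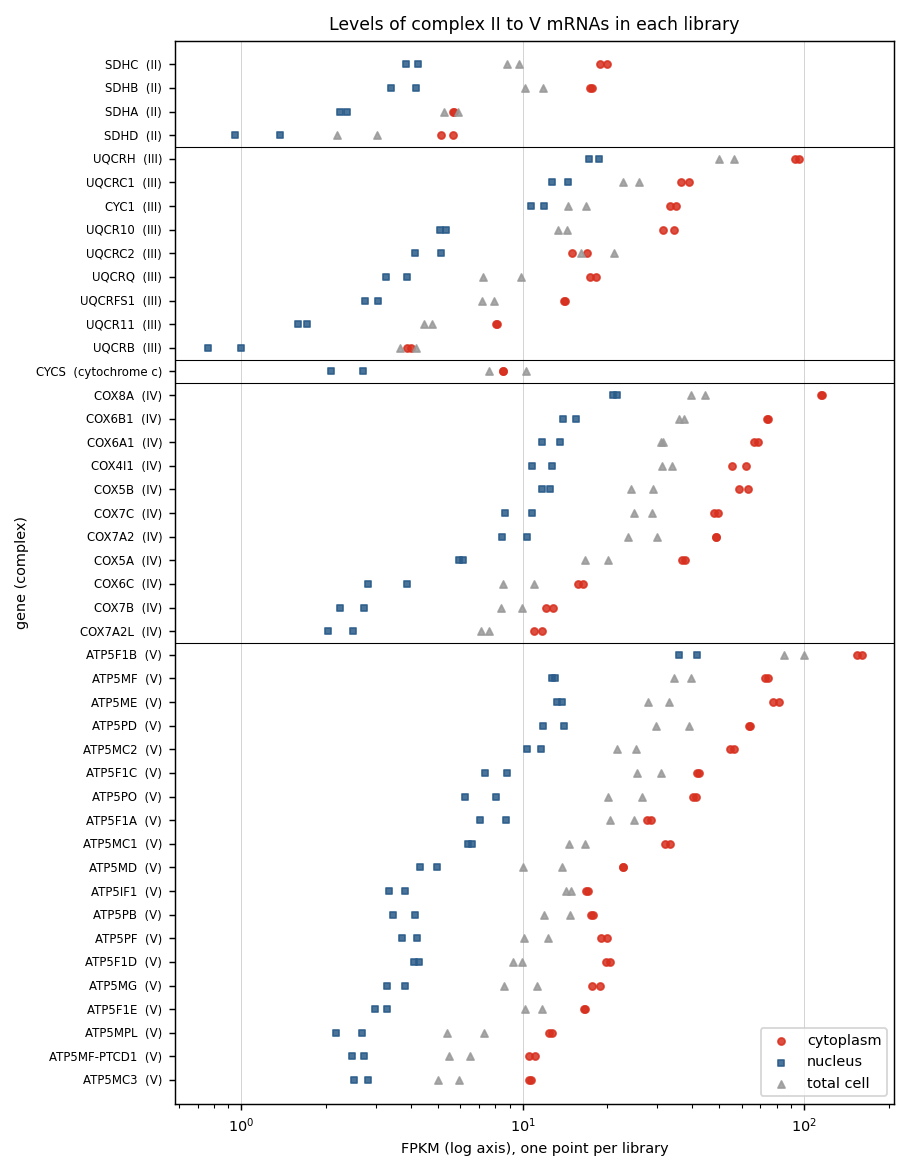
FPKM (log axis) of the 44 tested mRNAs of complexes II to V and cytochrome c, 1 point per library, with 2 cytoplasmic (red circles), 2 nuclear (blue squares) and 2 total-cell libraries (grey triangles) per gene, grouped by complex and ordered by mean. Both cytoplasmic points lie right of both nuclear points for all 44, and the total-cell points lie between them for most genes. For SDHA, UQCRB, UQCRC2 and CYCS, 1 of the 2 total-cell points lies right of both cytoplasmic points.

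The first comparison asked how far each message was found in the cytoplasm relative to the nucleus. All 44 tested members were higher in the cytoplasm and none was lower, with cytoplasmic means 2.45 to 6.35 times the nuclear ones (limma on log2(FPKM + 1), adjusted p below 0.05 over 10246 protein-coding genes). Of all tested genes 90.1% were called higher and 1.26% lower, so the count alone does not set the members apart. Their median log2 fold change was 2.03, beside 0.82 for all tested genes. Among genes with a mean of at least 5 FPKM the medians were closer, 2.06 for 40 members and 1.35 for all genes tested at that level. With the libraries scaled to one median, which brought the median of all tested genes to 0.03, 43 members were higher, none was lower and SDHA was not called; 40.0% of all tested genes were then higher and 33.4% lower, and the members' median was 1.01. The values that follow are on the deposited scale unless they are called scaled; a difference on log2(FPKM + 1) understates the change of weakly expressed genes. limma took each gene's spread wholly from the trend over all genes, which makes very small p-values, so for this comparison the adjusted p-values from each gene's own spread are added: they ran from 0.00260 to 0.00834 over the 44 members in limma, and 83.1% of all tested genes were called higher that way. Calls and adjusted p-values elsewhere come from the fit with the trend unless stated.

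Complex II oxidises succinate to fumarate. SDHA, the flavoprotein that holds the active site (chromosome 5, 218241 to 256700, GRCh38), measured 5.66 and 5.71 FPKM in the cytoplasm, 2.25 and 2.38 FPKM in nuclear RNA and 5.26 and 5.87 FPKM in total RNA. Its cytoplasmic libraries were above both nuclear ones but within the range of the total-cell ones. The cytoplasm-to-nucleus difference of 1.01 ± 0.12 (limma SE) on the log2 scale was the lowest of the 44 members, and after scaling it was 0.08 ± 0.06 (limma, adjusted p = 0.230). The 3 named copies of SDHA summed to means of 1.34 FPKM in the cytoplasm, 1.37 FPKM in nuclear RNA and 7.21 FPKM in total RNA. How reads that match several places were assigned is not given in the sources used here, so the levels of SDHA are uncertain. SDHB, the iron-sulfur subunit, measured 17.3 and 17.6 FPKM in the cytoplasm against 3.41 and 4.18 FPKM in nuclear RNA, and 10.2 and 11.8 FPKM in total RNA. SDHC, a membrane anchor, measured 19.9 and 18.9 FPKM against 3.85 and 4.25 FPKM, with 8.78 and 9.69 FPKM in total RNA. For both genes the 3 fractions did not overlap, and their log2 differences were 1.95 ± 0.13 and 2.01 ± 0.13. SDHD, the other anchor, stood lower at 5.401 ± 0.370 FPKM in the cytoplasm (SD, n = 2) and 1.16 ± 0.298 FPKM in nuclear RNA, a difference of 1.57. In FPKM the catalytic flavoprotein message was thus near the SDHD anchor in the cytoplasm (means of 5.68 and 5.401 FPKM), and above it in the nucleus (2.32 and 1.16 FPKM). All annotated exons together cover 8383 bases for SDHA and 2838 bases for SDHD. Which length entered the FPKM is not given, so their relative abundance is uncertain.

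Complex III moves electrons from ubiquinol to cytochrome c. UQCRH, the acidic hinge subunit, was its best expressed member, at 95.6 and 92.5 FPKM in the cytoplasm, 17.2 and 18.6 FPKM in nuclear RNA and 49.98 and 56.4 FPKM in total RNA (log2 difference 2.33 ± 0.13). UQCR10, a small accessory subunit (chromosome 22, 29767369 to 29770413), measured 31.4 and 34.5 FPKM against 5.07 and 5.32 FPKM, with 13.4 and 14.4 FPKM in total RNA. Its mean was 6.35 times higher in the cytoplasm, the widest ratio of means among the members, and its log2 difference was 2.45 ± 0.13. The core proteins of the complex lay at the other end.

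UQCRC1, a core subunit on chromosome 3 (48599002 to 48610976), measured 38.9 and 36.7 FPKM in the cytoplasm but also 12.7 and 14.5 FPKM in nuclear RNA, with 22.8 and 26.0 FPKM in total RNA. UQCRC2, the other core subunit, measured 16.9 and 14.96 FPKM against 4.15 and 5.15 FPKM, with 16.1 and 21.1 FPKM in total RNA. CYC1, the cytochrome c1 subunit that hands electrons to cytochrome c, measured 35.1 and 33.5 FPKM against 10.7 and 11.9 FPKM, with 14.5 and 16.8 FPKM in total RNA. All 3 were higher in both cytoplasmic than in both nuclear libraries, by 1.41 ± 0.13, 1.59 ± 0.13 and 1.52 ± 0.13 on the log2 scale, and after scaling by 0.27, 0.54 and 0.40. In the nucleus the means of UQCRC1 and UQCRH were 13.6 and 17.9 FPKM, and in the cytoplasm they were 37.8 and 94.1 FPKM. The Rieske iron-sulfur protein gene UQCRFS1 measured 14.1 ± 0.115 against 2.90 ± 0.210 FPKM (difference 1.95). Of the other small subunits UQCRQ rose by 2.04, UQCR11 by 1.77 and UQCRB by 1.403. UQCRB had the lowest mean FPKM of the tested members, with 3.96 ± 0.0880 against 0.879 ± 0.170 FPKM.

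Cytochrome c itself, which carries electrons between complexes III and IV and also triggers apoptosis once released, is encoded in somatic cells by CYCS (chromosome 7, 25120091 to 25125361). CYCS measured 8.52 and 8.51 FPKM in the cytoplasm, 2.08 and 2.70 FPKM in nuclear RNA and 7.61 and 10.3 FPKM in total RNA. The cytoplasmic libraries lay above both nuclear ones and inside the range of the total-cell ones. Its difference between cytoplasm and nucleus was 1.496 ± 0.12 (scaled 0.55), below the medians of complexes II, III, IV and V.

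Complex IV had the highest median difference of the groups, 2.24 over 11 tested members (scaled 1.10). The median was 2.08 for complex V, 1.77 for complex III and 1.76 for complex II (scaled 1.03, 0.89 and 0.85). The complexes were not tested against each other. These medians are on log2(FPKM + 1), which understates the change of weakly expressed genes. Whether their order holds by the ratio of means was not tested. COX8A, a small subunit with a single membrane helix (chromosome 11, 63974607 to 63976543), measured 115 and 116 FPKM in the cytoplasm, 20.9 and 21.7 FPKM in nuclear RNA and 39.5 and 44.6 FPKM in total RNA (difference 2.38 ± 0.13). COX6B1, which faces the intermembrane space, measured 73.6 and 74.4 FPKM against 13.9 and 15.5 FPKM, with 35.9 and 37.3 FPKM in total RNA (difference 2.26 ± 0.13). COX5A, a matrix-facing subunit on chromosome 15 (74919791 to 74938168), measured 37.7 and 36.9 FPKM against 5.92 and 6.16 FPKM, with 16.6 and 20.1 FPKM in total RNA (difference 2.44 ± 0.13). In these 3 genes the cytoplasmic libraries stood highest and the nuclear ones lowest, without overlap among fractions.

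The other complex IV subunits differed in level more than in ratio. COX6A1 measured 68.8 and 66.5 FPKM in the cytoplasm, 11.7 and 13.6 FPKM in nuclear RNA and 31.1 and 31.5 FPKM in total RNA. COX4I1, the largest nuclear subunit and the site of nucleotide binding, measured 62.1 and 55.6, 10.8 and 12.8, and 31.3 and 34.0 FPKM in the same order. COX7A2 measured 48.5 and 48.6, 8.47 and 10.3, and 23.6 and 30.1 FPKM. These 3 housekeeping isoforms were each several times higher in the cytoplasm by the ratio of means (5.34, 5.002 and 5.16). COX7A2L, whose protein takes part in supercomplex assembly, measured 11.7 and 11.0, 2.03 and 2.49, and 7.10 and 7.61 FPKM, and COX7B 12.8 and 12.1, 2.24 and 2.74, and 8.39 and 9.93 FPKM. They had the 2 lowest differences of the complex on the deposited log2 scale, 1.93 and 1.95, and all 11 members lay between 1.93 and 2.44. By the ratio of means COX6C (4.81) was lower than COX7A2L and COX7B (5.03 and 4.996).

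Complex V holds a catalytic F1 head, a central and a peripheral stalk, and a membrane ring of c subunits. ATP5F1B, the catalytic beta subunit (chromosome 12, 56638175 to 56646068), was the most abundant member in every library, at 160 and 155 FPKM in the cytoplasm, 36.0 and 41.8 FPKM in nuclear RNA and 84.9 and 100 FPKM in total RNA. ATP5ME, the membrane subunit e that helps hold ATP synthase dimers (chromosome 4, 672436 to 674338), measured 77.3 and 81.4 FPKM in the cytoplasm, 13.2 and 13.8 FPKM in nuclear RNA and 27.9 and 33.0 FPKM in total RNA. Its difference of 2.47 ± 0.13 was the largest of the 44 members, whereas ATP5F1B differed by 1.995 ± 0.13. ATP5MF, subunit f of the same membrane part, measured 72.4 and 74.6 FPKM against 12.8 and 13.1 FPKM, with 34.4 and 39.6 FPKM in total RNA, and differed by 2.42 ± 0.13. Its exons are shared on the same strand with the read-through gene ATP5MF-PTCD1, which the symbol rule also takes as a member (10.8 ± 0.362 against 2.61 ± 0.173 FPKM, difference 1.71), so the split of reads between both is uncertain.

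Messages of complex V subunits that occur in equal number stood at different FPKM values. The alpha and beta subunits are equally many in the F1 head, but ATP5F1A, the alpha subunit, measured 28.2 ± 0.582 FPKM in the cytoplasm, 7.91 ± 1.18 FPKM in nuclear RNA and 22.6 ± 3.12 FPKM in total RNA, below ATP5F1B in every library. All annotated exons together cover 10908 bases for ATP5F1A and 2322 bases for ATP5F1B. Which length entered the FPKM is not given in the sources used here, so the gap between these genes is uncertain. The gamma subunit of the central stalk, ATP5F1C, reached 42.0 ± 0.630 against 8.08 ± 1.07 FPKM. Differences were 1.72 for ATP5F1A and 2.25 for ATP5F1C. The remaining F1 and stalk subunits rose as well: ATP5PO by 2.37, ATP5PD by 2.23, ATP5F1E by 2.09, ATP5PF by 2.04, ATP5F1D by 2.02 and ATP5PB by 1.97. Among membrane subunits ATP5MG and ATP5MD both rose by 2.08 and ATP5MPL by 1.99. ATP5IF1, which inhibits ATP hydrolysis by the enzyme, measured 16.97 ± 0.200 against 3.59 ± 0.316 FPKM and rose by 1.97.

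The c subunit of the rotor ring is encoded by 3 genes whose proteins differ in the import sequence and are the same once processed. ATP5MC2 was the highest, at 56.3 and 54.4 FPKM in the cytoplasm, 10.4 and 11.6 FPKM in nuclear RNA and 21.6 and 25.3 FPKM in total RNA. ATP5MC1 followed at 32.1 and 33.4, 6.40 and 6.58, and 14.6 and 16.6 FPKM, and ATP5MC3 was the lowest at 10.5 and 10.7, 2.51 and 2.82, and 4.99 and 5.92 FPKM. The order was the same in all 6 libraries, with no overlap between the genes within a fraction. ATP5MC2 and ATP5MC1 differed between cytoplasm and nucleus by 2.23 ± 0.13 and 2.17 ± 0.13, and ATP5MC3 by 1.67 ± 0.12. This was the lowest value in complex V on the deposited log2 scale. ATP5F1A was lower than ATP5MC3 by the ratio of means (3.56 against 3.99) and after scaling (0.61 against 0.70). The coding sequences of the 3 c subunit genes were 66.9% to 70.5% identical, and the longest stretch shared by any pair was 17 bases.

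**Figure D2:**
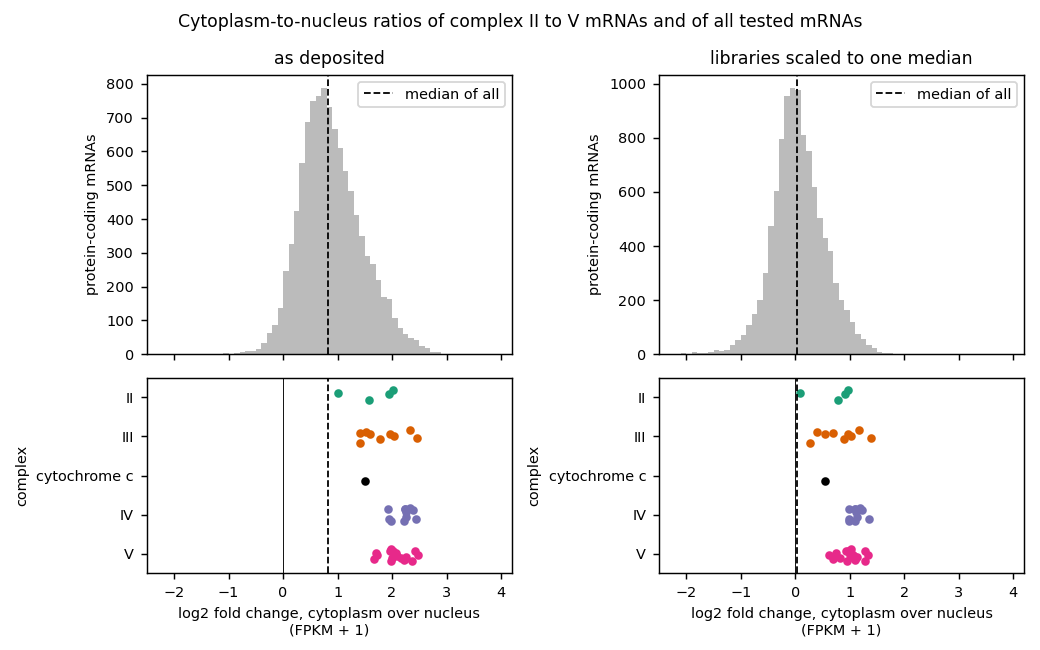
Log2 fold changes of cytoplasm over nucleus on log2(FPKM + 1), as deposited (left) and with libraries scaled to one median (right); histograms count the 10246 tested protein-coding mRNAs, points are the 44 tested members by complex and the dashed line is the median of all. All 44 points lie right of that line as deposited, with complex IV between 1.93 and 2.44 and SDHA of complex II, at 1.01, nearest to it.

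Isoforms known from other tissues were near or at 0. COX7B2, a testis-enriched isoform, was listed at 0 in all 6 libraries. COX6A2, the heart and muscle isoform, reached at most 0.0386 FPKM, COX4I2, a lung isoform, 0.107 FPKM, and the testis isoforms COX6B2 and COX8C 0.103 and 0.0986 FPKM. COX7A1, the heart and muscle counterpart of COX7A2, had the highest level of these isoforms. It measured 0.168 and 0.261 FPKM in the cytoplasm, 0.0899 and 0.213 FPKM in nuclear RNA and 0.683 and 1.04 FPKM in total RNA. Both total-cell libraries were above all 4 fraction libraries. ATP5MGL stayed below 0.216 FPKM, and UQCRHL, an intron-less relative of UQCRH, measured 0.193 to 0.984 FPKM.

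UQCRHL and UQCRH show how near such copies can be. Their coding sequences of 276 bases, stop codon included, differed at 4 positions and shared an unbroken run of 157 bases. Bases 114 to 233 of both coding sequences follow, counted from the A of the start codon, with the differing bases in capitals; UQCRH lies on the plus strand of chromosome 1 (46303631 to 46316776) and UQCRHL on its minus strand (15807169 to 15809348), both GRCh38.
UQCRH: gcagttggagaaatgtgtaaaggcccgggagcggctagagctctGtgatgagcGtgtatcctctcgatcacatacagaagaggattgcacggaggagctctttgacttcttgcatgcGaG
UQCRHL: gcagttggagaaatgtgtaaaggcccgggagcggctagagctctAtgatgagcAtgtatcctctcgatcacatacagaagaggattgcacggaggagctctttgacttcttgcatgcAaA
UQCRH was the third most abundant member and UQCRHL lay below the filter. How reads that match both places were assigned is not given in the sources used here, so both levels are uncertain.

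COX6A1 has a copy that was itself abundant in the table. COX6A1P2, annotated as a processed pseudogene on the plus strand of chromosome 6 (37044860 to 37045189), measured 50.02 and 47.9 FPKM in the cytoplasm, 9.19 and 9.24 FPKM in nuclear RNA and 32.9 and 27.5 FPKM in total RNA. In the cytoplasm and nucleus it lay below COX6A1, and in total RNA both overlapped. COX6A1, on the plus strand of chromosome 12 (120438090 to 120440742), and its copy are 98.8% identical over 330 bases, and all 4 differing bases, in capitals, fall in the first 120 bases, which are shown because they hold every difference found within the coding sequence; untranslated bases were not compared.
COX6A1: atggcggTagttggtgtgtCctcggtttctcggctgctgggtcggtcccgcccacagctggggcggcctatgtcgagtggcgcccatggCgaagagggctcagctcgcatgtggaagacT
COX6A1P2: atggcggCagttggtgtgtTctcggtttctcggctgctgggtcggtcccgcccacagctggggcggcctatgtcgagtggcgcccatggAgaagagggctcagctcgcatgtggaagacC
The remaining 210 coding bases are identical, so the level of COX6A1 is uncertain, since the counting could have divided its reads between both places. UQCRFS1P1 was the only other of the 96 named copies left out by the rule with a mean above 2 FPKM (5.46 and 7.05 FPKM in the cytoplasm), and its sequence matched UQCRFS1 at 98.5% of 818 bases.

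The 94 further copies, which are not members, had another order of fractions. Together they summed to 4.26 and 4.46 FPKM in the cytoplasm, 3.01 and 2.21 FPKM in nuclear RNA and 25.9 and 29.3 FPKM in total RNA. Of the 56 above 0 in some library, 34 (60.7%) had both total-cell libraries above all 4 fraction libraries. So did 53.7% of all 6112 processed pseudogenes above 0 and none of the 44 tested members. The share over all tested protein-coding genes was not computed. Total-cell values in the file were written with a median of 15 digits and fraction values with 6, so the columns were written in different ways; whether this moves with the higher copy values was not tested. COX6C has 17 named copies, which summed to 10.8 FPKM in total RNA, beside a parent level of 9.75 FPKM. Copies of CYCS and of the complex II genes fall outside the symbol rule and are not among the 94. The 41 named copies of CYCS summed to 11.0 FPKM in total RNA, beside a parent level of 8.94 FPKM.

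Short messages and the highest ratios went together within the members. Their annotated coding length had a median of 366 bases (153 to 2247), compared with 1380 bases for 9908 tested genes with an annotated coding sequence, and they had a median of 4 exons against 9. Across the 44 members the cytoplasm-to-nucleus difference fell with coding length (Spearman's rho -0.389) and with the length of the annotated mRNA (rho -0.678); over the 9908 genes rho was -0.649 and -0.568. These are correlations across genes of the same 6 libraries, and genes are not independent replicates. With the mean level over all libraries rho was 0.72 over the members and 0.62 over all tested genes. Part of this is built in, since at a given ratio a difference on log2(FPKM + 1) is smaller for weakly expressed genes. Whether level moves with the ratio itself was not tested. Among genes with coding sequences under 500 bases, the 29 members had a median difference of 2.09 and the other 941 tested genes 1.48. At 500 bases or more the 15 members had a median of 1.95 and the other 8923 genes 0.77. On the deposited log2 scale the long subunits SDHA (1992 bases), UQCRC1 (1440), UQCRC2 (1359) and CYC1 (975) were among the 7 lowest differences. SDHD, CYCS and UQCRB were the others. Other long members were not among them on that scale: ATP5F1B (1587 bases) differed by 1.995, ATP5F1A (1659) by 1.72 and ATP5MF-PTCD1 (2247) by 1.71. This order depended on the scale. By the ratio of means ATP5F1A (3.56), ATP5F1B (4.05) and ATP5MF-PTCD1 (4.15) were all lower than UQCRB (4.504) and SDHD (4.65). After scaling ATP5F1A (0.61) was lower than UQCRB (0.69) and SDHD (0.79). ATP5MF-PTCD1 (0.74) then lay between those 2 genes, and ATP5F1B (0.82) above both. CYCS and UQCRB have short coding sequences of 315 and 333 bases but annotated mRNAs of 4098 and 5575 bases.

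**Figure D3:**
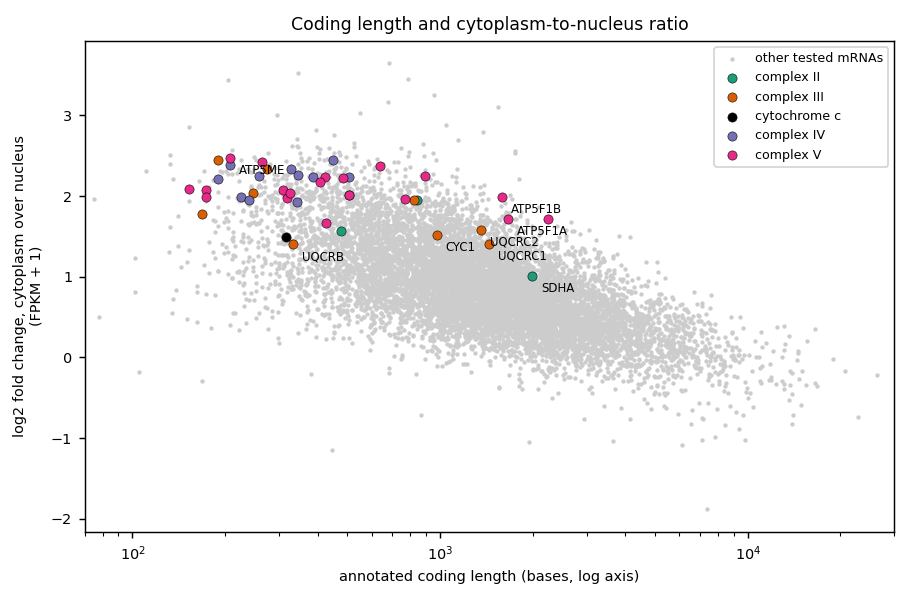
Annotated coding length in bases (log axis) against the log2 fold change of cytoplasm over nucleus on log2(FPKM + 1), with tested mRNAs as grey points and members coloured by complex. Members cluster at the short, high end of the cloud; SDHA, at 1992 bases and 1.01, is the lowest member, and ATP5ME, at 207 bases and 2.47, the highest.

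The wider respiratory programme was read from lists of related genes. Of 37 nuclear-encoded complex I subunits, 36 were tested and all 36 were higher in the cytoplasm (median 1.97, scaled 0.91), close to the members' median of 2.03. All 39 tested assembly factors and helpers of complexes II to V were higher too, but with a median of 1.19 (scaled 0.50, with 33 higher and 1 lower). The lower one was LRPPRC, which stabilises mitochondrial mRNAs, with a difference of 0.30 as deposited and -0.64 after scaling; HIGD2A, a complex IV assembly factor, differed by 2.004. Among 18 citric acid cycle genes, which feed complex II, all were higher with a median of 1.35 (scaled 0.36, with 12 higher and 2 lower). The 10 tested regulators of mitochondrial biogenesis, NRF1, GABPA and TFAM among them, had a median of 0.84 (scaled 0.01, with 3 higher and 2 lower). The 6 subunits of complexes III, IV and V that are made inside mitochondria had the highest median, 3.30 (scaled 2.12). MT-CO2, a mitochondrially encoded subunit of complex IV, had the largest difference of all tested genes (3.65). It measured 2148 and 1665 FPKM in the cytoplasm and still 146 and 154 FPKM in the nuclear libraries. Mitochondrial transcripts were therefore present in the nuclear fraction, and their part in the members' nuclear levels was not tested.

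The second comparison set the cytoplasm against total-cell RNA, which shares its cytoplasmic libraries with the first. Here 39 of the 44 members were higher in the cytoplasm, none was lower and 5 were not called, whereas 30.3% of all tested genes were higher and 43.9% lower (limma, adjusted p below 0.05). The members' median log2 difference was 0.83 and that of all tested genes -0.13. Among genes with a mean of at least 5 FPKM the medians were 0.83 for 40 members and 0.23 for all genes tested at that level. After scaling, the medians of the 44 members and of all tested genes were 1.08 and 0.10. Then 43 members were higher and none lower, against 47.9% and 37.0% of all tested genes. COX8A led with 115 ± 0.378 FPKM in the cytoplasm against 42.0 ± 3.59 FPKM in total RNA (1.44 ± 0.13), followed by ATP5ME (1.36), ATP5MC2 (1.21), UQCR10 (1.19) and COX5B (1.16). COX8A, ATP5ME and UQCR10 encode small membrane subunits, ATP5MC2 the c subunit and COX5B a matrix-facing subunit of complex IV.

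The 5 members without a call were ATP5IF1, SDHA, UQCRB, CYCS and UQCRC2. ATP5IF1 measured 17.1 and 16.8 FPKM in the cytoplasm and 14.3 and 14.8 FPKM in total RNA, without overlap, a difference of 0.21 ± 0.13 (limma, adjusted p = 0.127). UQCRC2 measured 15.9 ± 1.36 against 18.6 ± 3.54 FPKM (-0.20 ± 0.13, limma adjusted p = 0.141) and CYCS 8.51 ± 0.0131 against 8.94 ± 1.88 FPKM (-0.05 ± 0.12, limma adjusted p = 0.725). SDHA and UQCRB differed by 0.03 ± 0.12 and 0.01 ± 0.12. Without total replicate 1, UQCRC2 was called lower in the cytoplasm (-0.39, limma adjusted p = 0.0132). Cytoplasmic and total-cell libraries overlapped in these last 4 genes, and after scaling ATP5IF1, SDHA, UQCRB and CYCS were called higher in the cytoplasm, at 0.48, 0.27, 0.24 and 0.22, while UQCRC2 was at 0.08. With each gene's own spread 33 members stayed called, beside 24.3% of all tested genes. For 42 of the 44 members the total-cell mean lay between the nuclear and cytoplasmic means. The exceptions were UQCRC2 and CYCS, above the cytoplasm. The share of all tested genes with this order was not computed, so the count does not set the members apart.

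**Figure D4:**
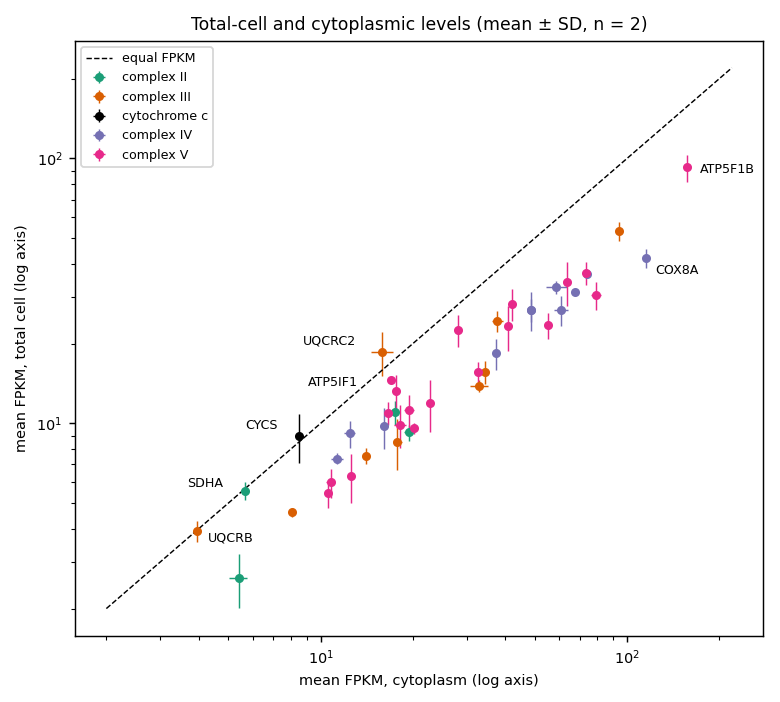
Mean FPKM ± SD (n = 2 libraries) in the cytoplasm and in total-cell RNA, both on log axes, for the 44 tested members coloured by complex; the dashed line marks equal FPKM. ATP5IF1, SDHA, UQCRB, CYCS and UQCRC2 lie on or near the line, and the other 39 lie below it, COX8A and ATP5ME farthest.

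Neuronal markers moved with this contrast in the opposite direction. Of 6, 5 were lower in the cytoplasm than in total RNA and none higher (median -1.13; 5 lower and 1 higher after scaling), and their summed level of 251 to 277 FPKM in the cytoplasm compared with 513 to 577 FPKM in total RNA. Progenitor markers were split, with 3 higher and 2 lower, also after scaling. Their sums were 678 to 730.1 against 372 to 401 FPKM, but VIM alone made up most of each. It measured 630 and 583 FPKM in the cytoplasm and 290 and 308 FPKM in total RNA, so the sums do not describe the markers as a group. The labels do not say whether total-cell and fractionated RNA came from the same cultures, and the part of the cells' make-up in the members' differences from total RNA was not tested. In bulk RNA, fewer cells of a type and less RNA per cell cannot be told apart. Complex I subunits gave 32 higher and 4 lower (median 0.72), assembly factors 20 higher and 4 lower (0.25), and the mitochondrially encoded partners 1 higher and 1 lower (-0.05).

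The third comparison, of the nucleus with total-cell RNA, uses libraries of both others. All 44 members were lower in the nucleus, as were 94.7% of all tested genes, 0.654% being higher (limma, adjusted p below 0.05), with medians of -1.26 and -1.05. After scaling the median of the members was 0.05 and that of all tested genes 0.01; 17 members were then higher, 10 lower and 17 not called, against 40.3% higher and 37.8% lower among all tested genes. Relative to the median message, the members had no shared direction here.

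Single members still differed in both directions after scaling. CYC1 was the least reduced in the nucleus, with 11.3 ± 0.869 FPKM against 15.7 ± 1.60 FPKM in total RNA (-0.44 ± 0.13 as deposited, 0.96 ± 0.05 scaled). UQCRC1 measured 13.6 ± 1.33 against 24.4 ± 2.26 FPKM (-0.80 and 0.62), and COX8A 21.3 ± 0.587 against 42.0 FPKM (-0.95 and 0.50). UQCRC2 was the most reduced, with 4.65 ± 0.702 against 18.6 FPKM (-1.79 and -0.45), ATP5IF1 next with 3.59 against 14.6 ± 0.351 FPKM (-1.76 and -0.47), and CYCS measured 2.39 ± 0.436 against 8.94 FPKM (-1.55 and -0.34). Both core subunits of complex III thus stood at opposite ends: total-cell means of UQCRC1 and UQCRC2 were 24.4 and 18.6 FPKM, while the nuclear means were 13.6 and 4.65 FPKM. All 6 neuronal markers were lower in the nucleus as well (median -2.60, scaled -1.15), and their part in these differences was not tested.

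Promoter sequence from RefSeq (GRCh38.p14) was matched by symbol for 39 of the 52 members, or 75.0%. This is under 80%, so a comparison of motif shares between members and other genes is void and is not given. The windows below are shown because nuclear respiratory factor 1 and ETS family factors such as GABPA are known regulators of respiratory subunit genes. Capitals mark matches on either strand to GCGCANGCG, a core of the nuclear respiratory factor 1 motif, or to CCGGAAG, an ETS core. Within 250 bases upstream of the start 9.72% and 11.8% of all 15843 protein-coding promoters hold them. Among the 8149 promoters of tested genes the shares are 14.6% and 17.7%. The windows shown were picked from members that hold a match, so they do not describe the members as a set. UQCR11 (chr19:1605463-1605562, minus strand) holds matches to both, ATP5ME (chr4:674396-674495, minus strand) to the first, COX8A (chr11:63974520-63974619, plus strand) to the second.
UQCR11: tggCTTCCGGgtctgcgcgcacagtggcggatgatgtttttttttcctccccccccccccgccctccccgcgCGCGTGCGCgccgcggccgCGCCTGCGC
ATP5ME: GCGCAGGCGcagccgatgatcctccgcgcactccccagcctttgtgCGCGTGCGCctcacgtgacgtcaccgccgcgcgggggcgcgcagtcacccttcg
COX8A: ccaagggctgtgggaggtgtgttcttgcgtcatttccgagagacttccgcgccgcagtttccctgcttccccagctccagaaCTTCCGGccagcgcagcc
A match describes the letters and does not show that a factor was bound. NRF1 itself measured 2.91 to 3.52 FPKM in the cytoplasm and GABPA 1.96 to 2.04 FPKM; GABPA shares exonic sequence with ATP5PF on the opposite strand, and whether counting used strand is not stated, so reads of both cannot be told apart.

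Rings spliced from these genes were counted in a separate table of circular RNAs. Of the 2 rings of members with enough reads to test, from ATP5F1C and COX5A, 1 was called higher in the cytoplasm than in the nucleus and 1 was not called, beside 30.9% of 914 tested rings called higher (limma, adjusted p below 0.05). The ring with a call, from ATP5F1C, lost it when the libraries were scaled by the mRNA factors (0.34, limma adjusted p = 0.721) and without cytoplasm replicate 1 or 2 (limma adjusted p = 0.0770 and 0.124).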

How the data were processed

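Gene levels were deposited by the authors as FPKM for 2 total-cell, 2 cytoplasmic and 2 nuclear libraries. Per the labels' protocols, RNA was depleted of ribosomal RNA and made into stranded libraries. Builds GRCh38 and hg38 are listed in the submitters' processing notes with the tools Bowtie, featureCounts 2.0.1, SAMtools 1.9, HISAT2 2.1.0 and Trimmomatic 0.39. Strand setting, annotation release and treatment of multiply mapped reads are not stated. For circRNAs the authors deposited a signal named FPB. Its meaning is not stated, and 100% of values were whole multiples of one read within 0.05 reads.

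Genes were typed by RefSeq or, failing that, GENCODE v29 annotation, which also gave coordinates and lengths (one annotated mRNA per gene). Protein-coding genes with a mean of at least 1 FPKM (10246) were tested as log2(FPKM + 1) by limma 3.58.1 in R 4.3.3. The 3 fractions formed a one-way design with a mean-variance trend and 3 residual degrees of freedom, and p-values were adjusted over all of them by Benjamini-Hochberg. On simulated data 93% of 2-fold and 100% of 4-fold changes between cytoplasm and nucleus were recovered with 8 false calls (10246 genes, 200 changed). Alternatives were the pseudocount, the filter, scaling to one median, the variance model, a replicate block, each library left out, all gene types and only the libraries compared. CircRNAs were tested the same way with a pseudocount of 0.123 FPB and a mean of at least 0.369 FPB, and edgeR 4.0.16 (quasi-likelihood) was run on their recovered reads.

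The members, lists, tests and naming rule were chosen with earlier results of these data known. Values per library are given for the 2 best expressed members of each complex, CYCS, the 5 largest and 5 smallest differences between cytoplasm and nucleus among members with a mean of at least 5 FPKM, and the tissue-isoform and c subunit groups; SDHA, ATP5IF1, COX7A1, the gene copies and the members named beside them were added after their values were seen. One listed marker gene is not reported here and was left out of its list.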

Additional observations from a re-analysis of the deposited data

Results flagged for a closer look

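CircRNAs, rings closed by a back-spliced junction, were deposited in a table outside the main mRNA measurement, and 13 of the 52 member genes hosted 23 of them. Of these, 21 had under 10 reads over all 6 libraries and were not tested. A ring of ATP5F1C, the gamma subunit of ATP synthase, spans exons 3 to 8 (chromosome 10, 7797047 to 7802854, 799 bases if all exons are kept). It had 37 and 40 reads in the cytoplasmic, 9 and 8 in the nuclear and 18 and 29 in the total-cell libraries, above the 3 reads that a count of 0 allows in each. Its level was 1.88 ± 0.0529 FPB in cytoplasmic RNA (SD, n = 2), 0.642 ± 0.141 FPB in nuclear RNA and 2.54 ± 0.453 FPB in total RNA. The cytoplasm exceeded the nucleus by 1.402 ± 0.34 on the log2 scale (limma, adjusted p = 0.00978 over 914 circRNAs, of which 30.9% were called higher), and by 1.56 with edgeR on the recovered reads (adjusted p = 0.0104). Scaled by the mRNA factors the difference was 0.34 (limma, adjusted p = 0.721). Without cytoplasm replicate 1 or 2 it was 1.43 or 1.38 with no call (limma, adjusted p = 0.0770 and 0.124), and without any other library it stayed called.

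A ring of COX5A, spanning exons 2 to 3 (chromosome 15, 74926766 to 74929232, 239 bases), had 9 and 6 reads in the cytoplasm, 1 and 2 in the nucleus and 5 and 10 in total RNA. It measured 0.368 ± 0.114 FPB in cytoplasmic RNA, 0.109 ± 0.0377 FPB in nuclear RNA and 0.801 ± 0.261 FPB in total RNA. The difference of 1.07 ± 0.58 was not called (limma, adjusted p = 0.149; edgeR, adjusted p = 0.144). Reads of 2 or fewer in the nucleus are below the limit that 0 reads allows. These limits cover counting error only.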

How the results depend on the processing

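Between cytoplasm and nucleus, the 44 members kept their direction under every alternative in which they were tested, and SDHA alone lost its call, on scaled libraries. The members' median difference was 2.28 with a pseudocount of 0.1 and 1.01 on scaled libraries, beside 1.17 and 0.03 for all tested genes. With a mean of at least 5 FPKM it was 2.06, beside 1.35. Between cytoplasm and total RNA the median was 1.08 on scaled libraries, where CYCS turned to 0.22. With each gene's own spread 6 members lost the call: ATP5PO, COX6C, ATP5F1C, COX7B, ATP5PB and ATP5F1A. With no filter, which tested 51 members, 4 were called lower, none of them among the 44, and without single libraries 0 to 1; the 1, without total replicate 1, was UQCRC2 (-0.39). ATP5PB, ATP5F1A and COX7B lost the call without cytoplasm replicate 1 (0.38, 0.29 and 0.37) and without total replicate 1 (0.25, 0.18 and 0.30), and ATP5F1A also without cytoplasm replicate 2 (0.33) and with no filter (0.31). Between nucleus and total RNA the median was -1.41 with a pseudocount of 0.1, -1.23 with no filter, -1.40 to -1.15 without single libraries, and 0.05 on scaled libraries, with 17 members higher and 10 lower (9 and 7 with each gene's own spread). The 17 members that turned higher on scaled libraries were led by CYC1 (0.96), UQCRC1 (0.62) and COX8A (0.50). The scaling alternative moves each library by its own median; the cause of the difference between libraries was not tested. Scaling combined with each gene's own spread was chosen after seeing the data.

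Pairing of the replicate numbers was not established: same-numbered libraries correlated at 0.0118, 0.150 and 0.461 in their deviations (cytoplasm and nucleus, cytoplasm and total, nucleus and total). With a replicate block 44, 39 and 44 members were called as without it. Over all tested genes the calls went from 9358 to 9370 between cytoplasm and nucleus and from 7611 to 7606 between cytoplasm and total RNA. Since no read counts accompany the FPKM values, no counting error could be given, and members near the filter, such as UQCRB and SDHD, are the least certain.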
